A study of Rattus norvegicus with 24 samples.

Results

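The transcripts described here are the 100 probes, of 22523 on the array, whose level differed most between rats of the same stage of puberty while the stage means lay close together. They were chosen by a rule on these same values, so their large spread within stages and their small differences between stages describe the choice and are no finding. The rule took log2 of the deposited normalized intensity on 20 arrays, and kept the 10891 probes with a detection p under 0.05 on at least 10 of them. For each probe the within-stage SD was the root of the summed squared deviations from the rat's own stage mean, divided by 15 degrees of freedom. The 4763 probes whose highest and lowest stage means lay less than 2 such SDs apart were ranked by that SD, and the first 100 were taken. A further 159 probes had an SD at least that of the last member and were left out for the distance between their stage means.

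The study measured total RNA of the hypothalamus of Sprague Dawley rats, an outbred stock, with biotin-labelled RNA on Illumina bead arrays, 1 array for each of 24 rats. The early juvenile group held 5 rats of 21 days, the juvenile group 5 rats of 26 days and the late juvenile group 5 rats of 29 days. The early proestrus group, killed before ovulation, held 4 rats labelled 29, 30, 31 and 32 days old, and the late proestrus group held 5 rats of 31 days, the day of first ovulation. The labels name no treatment or genetic change in any group and give no sex, though proestrus is a phase of the female cycle. Rats are named here by the number in their label.

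The hypothalamus holds many small groups of neurons that control the pituitary, and puberty begins when the neurons that release gonadotropin-releasing hormone become more active. Dissection takes the whole region, so a level is a mean over neurons, glia, vessels and any neighbouring tissue. Fewer cells of a type and less RNA per cell cannot be told apart in such a sample. A bead array reads each transcript through a short probe, and its brightness depends on the RNA and on how well that probe binds. The files give each probe an Illumina identifier and a target number, with no gene symbol, so the probes are named by identifier, no role is given to any of them, and the labelled tissue was not checked against marker genes.

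Of the 24 arrays, juvenile rat 4 and early proestrus rat 10 stood apart, with a mean raw intensity of 194.3 and 173.3 and with 19.5% and 6.33% of probes detected. The 20 arrays used had a mean raw intensity of 694.9 to 1024.6. Juvenile rat 5 and late juvenile rat 28 lay between, at 513.7 and 582.9, and the rule put them aside too. They are used below as arrays on which no member was chosen. This left 5 early juvenile, 3 juvenile, 4 late juvenile, 3 early proestrus and 5 late proestrus arrays. The highest correlation between 2 of the 20 arrays in their deviations from stage means was 0.359. No rat is labelled as measured again, so there was no known repeat to set this value against. The number of arrays limits the precision of every value below, and all levels and differences are on the log2 scale.

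The members had a median within-stage SD of 0.264, against 0.0903 over all detected probes, with quartiles of 0.075 and 0.111. The largest SD was 1.63, 12 members exceeded 0.5 and 36 exceeded 0.3. The range over the 20 arrays went from 0.63 to 4.22, with a median of 1.06. The last member, ILMN_1357658, had an SD of 0.2124 and the first probe outside, ILMN_1367675, had 0.2114. On the other limit ILMN_1365444 had stage means 2.00 SDs apart (just under the limit) and ILMN_1365825, left out, 2.03. Their median level was 9.70, against 8.77 over all detected probes, and the lowest was 7.85. Of the members, 93 were detected on all 20 arrays, against 80.3% of all detected probes, and 7 on 11 to 19. Among the members the mean correlation between 2 probes was 0.0594, over pairs that ran together and pairs that ran in opposite directions.

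**Figure D1:**
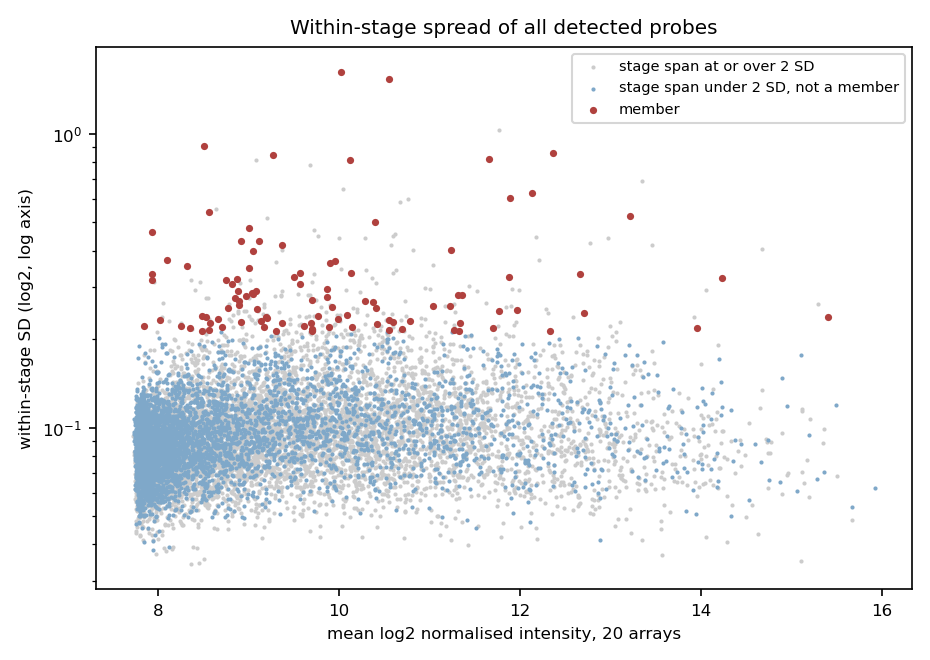
Within-stage SD (log2 scale) of each detected probe against its mean level (log2 normalized intensity) over 20 arrays, with the 100 members marked. The members run from 0.2124 to 1.63 in SD and from 7.85 to 15.41 in level, and the 2 with the largest SD stand far above the others.

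The widest spread belonged to probes that were either low or high, with no used rat in between. ILMN_2038795 had the largest SD, 1.63. Its 5 early juvenile values were 8.31 in rat 164, 8.10 in rat 165, 11.26 in rat 166, 8.95 in rat 167 and 8.54 in rat 168. The juvenile rats 1, 2 and 3 were at 8.74, 11.22 and 8.10. Rat 166 and rat 2 were thus far above the other used rats of their stage. The late juvenile rats 29, 35, 36 and 37 were at 11.44, 11.31, 8.83 and 11.30, and here rat 36 alone was low. The early proestrus rats 8, 17 and 18 were at 11.40, 8.47 and 11.28. The late proestrus rats 11, 12, 13, 14 and 20 were at 12.06, 8.32, 12.17, 8.42 and 12.30. Every stage therefore held rats in both ranges: 10 arrays lay between 8.10 and 8.95, 10 lay between 11.22 and 12.30, and the empty interval was 2.27 wide, a 4.83-fold step in normalized intensity. With the background subtracted by limma's neqc the step was 6.93-fold.

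The same 10 rats were high on 3 more members. ILMN_1365113 lay between 8.59 and 9.48 in the lower 10 rats and between 11.65 and 12.80 in the upper 10, with an empty interval of 2.17. ILMN_2038796, a second probe with the same target number as ILMN_2038795, lay between 10.27 and 11.08 and between 12.22 and 13.03, with an interval of 1.14. ILMN_1353766 lay between 7.54 and 7.94, where 2 of 10 arrays detected it, and between 8.74 and 10.29, where all 10 did, so its lower range was near background and no fold is given for its interval of 0.80. On all 4 probes the upper rats were early juvenile 166, juvenile 2, late juvenile 29, 35 and 37, early proestrus 8 and 18, and late proestrus 11, 13 and 20. That is 1 of 5, 1 of 3, 3 of 4, 2 of 3 and 3 of 5 rats by stage, in that order. The 3 late proestrus rats were the highest of all 20 on each of the 4 probes.

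**Figure D2:**
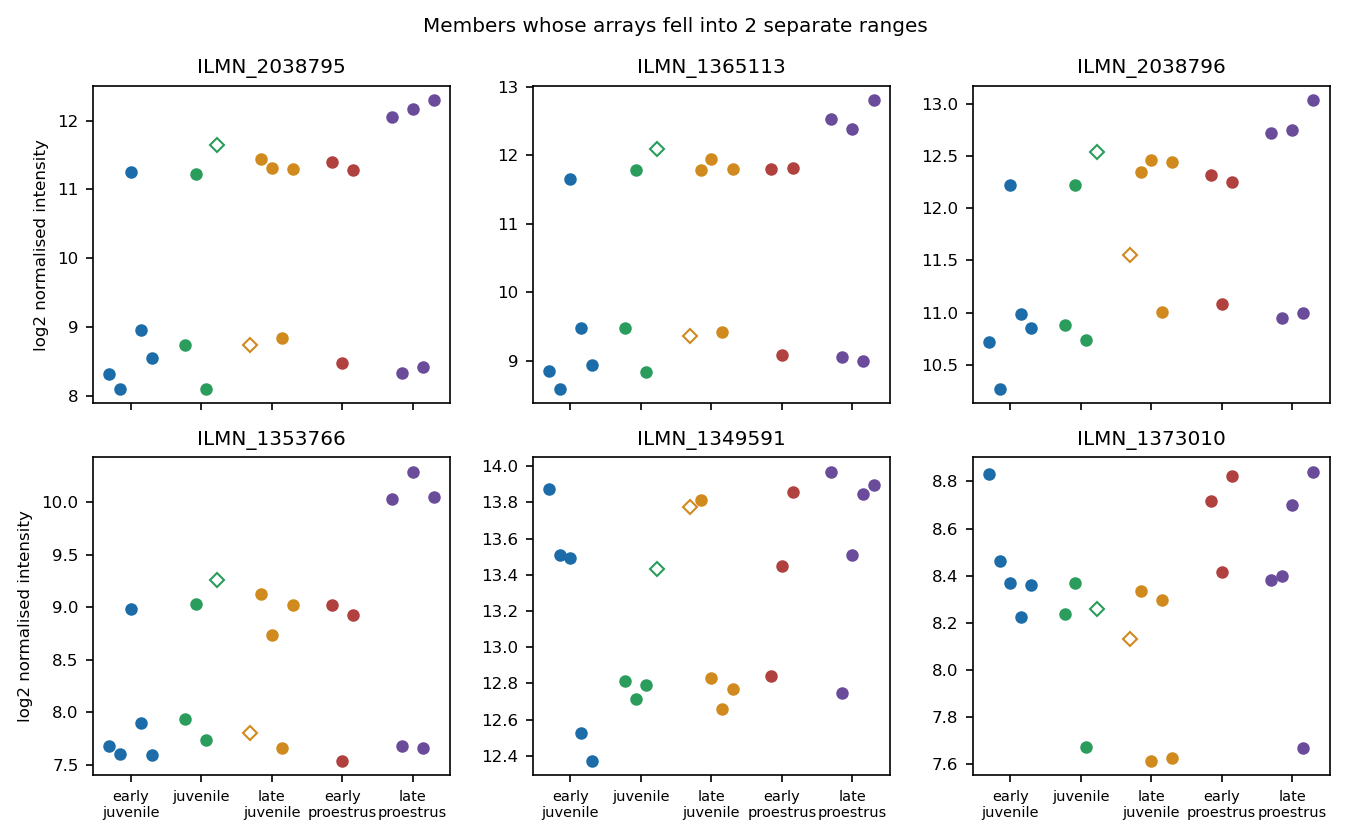
Level (log2 normalized intensity) of the 6 members whose arrays fell into 2 ranges, grouped by stage, with the 2 arrays put aside drawn as open diamonds. On ILMN_2038795, ILMN_1365113, ILMN_2038796 and ILMN_1353766 each stage has rats in both ranges, and the same 10 rats are in the upper range. No used array lies between the ranges.

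The arrays put aside had no part in choosing these probes. Of their 8 values on these 4 probes, 7 fell inside 1 of the ranges. The 4 probes moved together, so the 8 values amount to 1 observation for each of 2 rats. Juvenile rat 5 was at 11.65 on ILMN_2038795, 12.09 on ILMN_1365113, 12.54 on ILMN_2038796 and 9.26 on ILMN_1353766, inside the upper range each time. Late juvenile rat 28 was at 8.73, 9.36, 11.55 and 7.80, inside the lower range on 3 probes and between the ranges on ILMN_2038796. On the 20 arrays the deviations of ILMN_2038795 from stage means correlated at 0.998 with those of ILMN_1365113, at 0.989 with ILMN_2038796 and at 0.981 with ILMN_1353766 (Pearson, 20 arrays, a description of probes chosen for spread). Of all other detected probes, named for this likeness alone, the nearest were ILMN_1354787 at −0.862, ILMN_1356369 at −0.814 and ILMN_1367435 at 0.813, so the likeness dropped sharply after these 4.

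An empty interval of at least 0.5 with at least 4 arrays on each side was found in 6 members, against 33 of all 10891 detected probes (0.303%). Large spread was a condition of membership, so the count is no result about the members. Of the 33 probes, 21 were split along stage lines and 9 had at least 2 stages with rats on both sides. Of those 9, 6 were members. The other 2 members with such an interval, named after their values were seen, grouped the rats differently. ILMN_1349591 lay between 12.37 and 12.84 in 10 rats and between 13.45 and 13.97 in 10 others. Of the rats put aside, rat 5 was at 13.43, between the ranges and just below the upper one. Rat 28 was at 13.78, inside the upper range. ILMN_1373010 was at 7.62 to 7.67 and undetected in juvenile rat 3, late juvenile rats 35 and 37 and late proestrus rat 14. In the other 16 it was detected, at 8.23 to 8.84. On this probe rat 5 was at 8.26, inside the upper range, and rat 28 at 8.13, between the ranges.

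In 11 members 1 rat lay at least 0.5 from the other 19, against 28 of all detected probes (0.257%). The rat was high in 7 and low in 4. The count of members follows from the choice by spread, so it too is no result about them. ILMN_1349205 had the widest gap: late proestrus rat 13 was at 9.31, and the other late proestrus rats 11, 12, 14 and 20 were at 12.86, 12.17, 13.00 and 12.88. Its early juvenile rats 164 to 168 were at 12.76, 12.76, 12.81, 12.76 and 12.09, its juvenile rats 1, 2 and 3 at 11.89, 12.71 and 12.01, its late juvenile rats 29, 35, 36 and 37 at 12.27, 12.67, 12.78 and 12.80, and its early proestrus rats 8, 17 and 18 at 11.86, 12.23 and 12.83. Rat 13 was therefore 2.55 below the next lowest rat.

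The high ones among these are named after their values were seen. ILMN_1361976 was at 9.79 in late juvenile rat 36 and at 7.59 to 8.13 in the other 19. ILMN_1366937 was at 9.29 in late juvenile rat 35 and at 7.63 to 8.15 elsewhere. The lower values of both probes were near background. The detection p was 0.331 for ILMN_1361976 in late juvenile rat 35 and 0.215 for ILMN_1366937 in early juvenile rat 166. ILMN_1358078 was at 10.12 in late juvenile rat 36 and at 8.53 to 8.86 elsewhere. The array of late juvenile rat 28, which had no part in the choice, was at 10.66 on that probe, above rat 36. ILMN_1374129 was at 9.56 in late juvenile rat 37, at 7.82 to 8.41 in the other 19, and at 10.35 in rat 28. Thus 2 of the 7 probes with 1 high rat were high in rat 28 too, and in both the high rat was a late juvenile. Rat 28 lay above every other late juvenile rat on 30.8% of all detected probes, so nothing is read from that count. In 3 of the 7 the high rat was late proestrus rat 14, of another stage. Among the low ones, ILMN_1366540 was at 11.58 in late juvenile rat 37 and at 12.28 to 13.06 elsewhere, and ILMN_1351983 was at 10.06 in early proestrus rat 8 and at 10.86 to 12.60 elsewhere.

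Other members of large spread, also named after their values were seen, were graded. ILMN_1359649 was highest in juvenile rat 2 at 11.32, late juvenile rat 29 at 11.26 and early proestrus rat 18 at 10.36, and at or below 9.93 in the other rats. Late juvenile rat 28, put aside, was at 10.91. ILMN_1358480 was lowest in late proestrus rats 20 and 11, at 8.48 and 8.57, and in early juvenile rat 165, at 8.91, and reached 11.04 in early proestrus rat 17. ILMN_1360728 ran from 10.85 in early proestrus rat 8 to 13.00 in late proestrus rat 11. The 3 high rats of ILMN_1359649 came from 3 stages, and the 3 low rats of ILMN_1358480 were others, from the youngest and the oldest stage.

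When the deviations from stage means were clustered by average linkage on 1 minus Pearson correlation, cut at a correlation of 0.5, 54 members fell into 5 groups of at least 5 probes and 46 stood outside them. The groups are called A to E by size, with 30, 7, 6, 6 and 5 members. Their median correlations were 0.734, 0.759, 0.622, 0.870 and 0.629. Those values describe the clustering that made the groups.

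**Figure D3:**
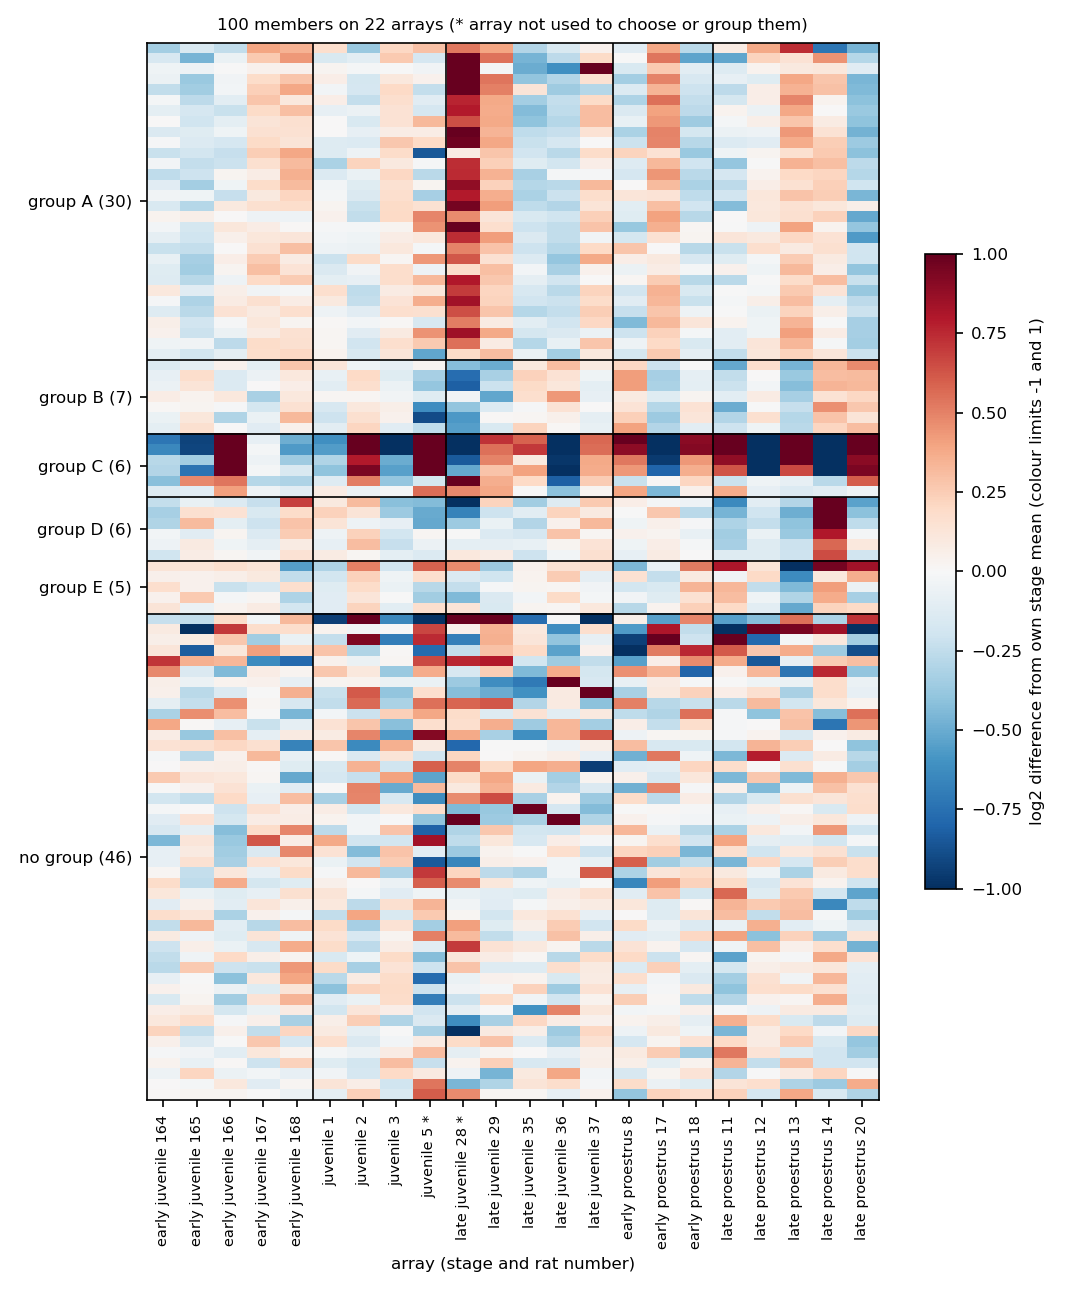
Deviation of each of the 100 members (rows) from the mean of the rat's stage over the used arrays (log2 scale, colour). Rows are ordered by group A to E and then the ungrouped. Columns are 22 arrays by stage, with the 2 arrays put aside starred. Group A has blocks of high rats in the early juvenile, juvenile, late juvenile, early proestrus and late proestrus stages, and group D is dominated by late proestrus rat 14.

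Group A was the largest, a set of 30 probes of small, shared differences with SDs from 0.21 to 0.42. Its leading probe, the one with the highest mean correlation with the rest, was ILMN_1356573. In the early juvenile rats 164 to 168 it was at 10.06, 9.75, 10.08, 10.31 and 10.40, and in the juvenile rats 1, 2 and 3 at 10.30, 10.06 and 10.34. In the late juvenile rats 29, 35, 36 and 37 it was at 10.24, 9.31, 9.41 and 9.85, so rats 35 and 36 were the lowest of all. In the early proestrus rats 8, 17 and 18 it was at 9.88, 10.72 and 10.07, and in the late proestrus rats 11, 12, 13, 14 and 20 at 10.29, 10.25, 10.76, 10.65 and 9.92. As a mean over the 30 members, early proestrus rat 17 lay highest, 0.31 above its stage, and late proestrus rat 20 lowest, 0.33 below. All 30 were above their stage mean in rats 17 and 13, and none was in late juvenile rat 36. The pattern was not limited to the members: 121 other detected probes, none a member, correlated above 0.8 with the group mean and 50 correlated below −0.8.

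Group A stood out on the array of late juvenile rat 28, which the rule did not use. On that array 27 of the 30 members were above every other late juvenile rat, where 30.8% of all detected probes were, and none was below every other, where 34% were. The members lay a median of 0.75 above the stage mean, from 0.08 to 2.38, while the median over all detected probes was −0.01. The leading probe was at 11.17, above all 20 arrays used. Of the 121 other probes that followed group A, 100 were also above every other late juvenile rat on that array, and of the 50 that ran against it 35 were below every other. This is 1 array, among the dimmest of the series, so no test was possible, and the part of its dimness in the result was not tested. The probes in these counts were grouped or picked for moving together, so on 1 array they are not separate observations. On the array of juvenile rat 5, also dim, 11 of the 30 were above every other juvenile rat, close to the 36.3% of all detected probes. Over the 20 arrays used, the group mean correlated at 0.28 with log2 mean raw intensity, both as deviations from stage means. For groups B, C, D and E that correlation was −0.361, −0.370, −0.003 and −0.236.

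**Figure D4:**
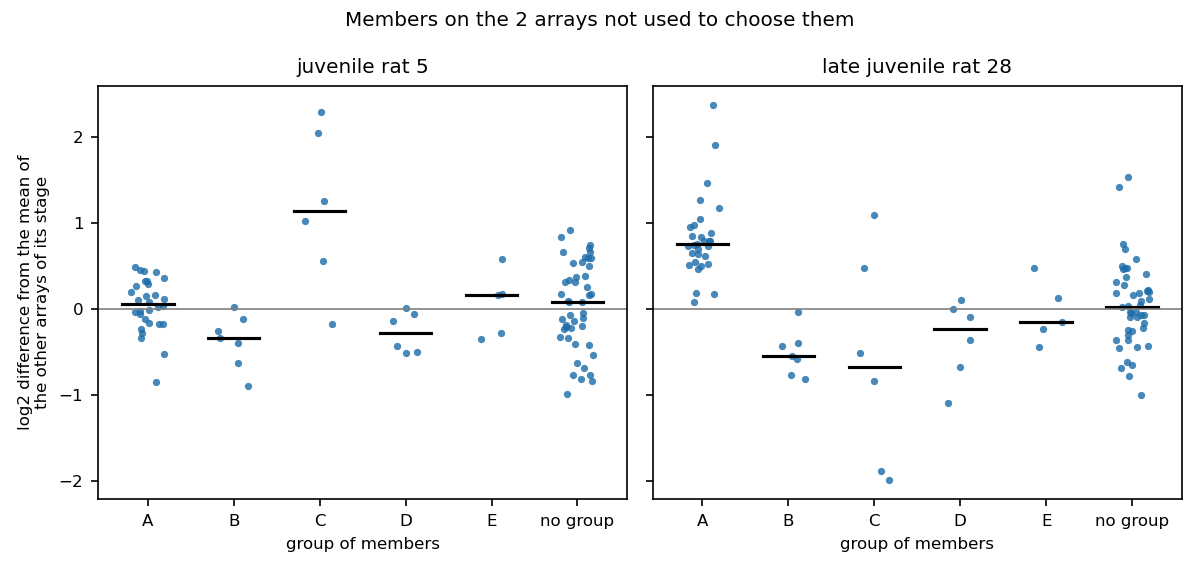
Deviation (log2 scale) of the members from the mean of their stage on the 2 arrays not used to choose them, by group and for the ungrouped members. On late juvenile rat 28 all 30 members of group A lie above 0, with a median of 0.75, and all 7 members of group B lie below 0.

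Group B ran against group A, with a correlation of −0.562 between the group means, and group E did so too, at −0.538. Its leading probe, ILMN_1367581, was at 11.26, 11.51, 11.20, 11.28 and 11.44 in the early juvenile rats 164 to 168 and at 11.23, 11.51 and 11.19 in the juvenile rats 1, 2 and 3. It was at 10.89, 11.45, 11.36 and 11.18 in the late juvenile rats 29, 35, 36 and 37 and at 11.67, 10.92 and 11.17 in the early proestrus rats 8, 17 and 18. In the late proestrus rats 11, 12, 13, 14 and 20 it was at 10.81, 11.06, 10.68, 11.37 and 11.37. The stages overlapped, with rats 13, 11, 29 and 17 lowest. On late juvenile rat 28 all 7 members lay below the stage mean. Their median deviation was −0.55, against −0.01 over all detected probes. There 5 of 7 were below every other late juvenile rat, where 34% of all detected probes were. On juvenile rat 5, 6 of 7 were below every other juvenile rat, where 39.7% of all detected probes were. The members were grouped for moving together, so these counts are not separate observations. Group B also held ILMN_1372946, the brightest member, named after its values were seen, which ran from 14.66 to 15.74.

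Group C was led by ILMN_1365113 and held the 4 probes with the same 10 upper rats, together with ILMN_1358998 and ILMN_1376587, both named after their values were seen. On juvenile rat 5, 5 of its 6 members were above every other juvenile rat, against the 36.3% of all detected probes given above. On late juvenile rat 28, 2 were above and 2 below every other late juvenile rat, against 30.8% and 34% of all detected probes. The 4 probes moved together, so these counts are not separate observations. Group D was led by ILMN_1376663 and rested largely on 1 rat. That probe was at 9.74, 10.00, 9.72 and 9.80 in late proestrus rats 11, 12, 13 and 20 and at 11.76 in rat 14. It was at 10.72 to 11.23 in the 5 early juvenile rats, 9.69 to 10.28 in the juvenile, 9.95 to 10.38 in the late juvenile and 10.04 to 10.57 in the early proestrus rats. The mean of the 6 members was 1.06 above the stage mean in rat 14, and without that rat the median correlation within the group fell from 0.870 to 0.531. Group E was led by ILMN_1349205 and lay lowest in late proestrus rat 13, at −0.92. Without rat 13 its median correlation was 0.483.

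The late proestrus rats held 26.7% of the degrees of freedom, 28.8% of the squared deviation of all detected probes and 41.0% of that of the members. The early proestrus rats held 13.3% of the degrees of freedom, 19.1% of the squared deviation of all detected probes and 13.7% of that of the members. The members were chosen on these deviations, so the shares are a description. The median SD of the members was 0.206 in the early juvenile, 0.197 in the juvenile, 0.265 in the late juvenile, 0.267 in the early proestrus and 0.296 in the late proestrus rats. Late proestrus rat 14 held 11.1% of the squared deviation of the members, against 6.27% over all detected probes. In 11 members 1 rat held at least 50% of the squared deviation, against 1.00% of all detected probes, and in 5 of these it was rat 14.

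**Figure D5:**
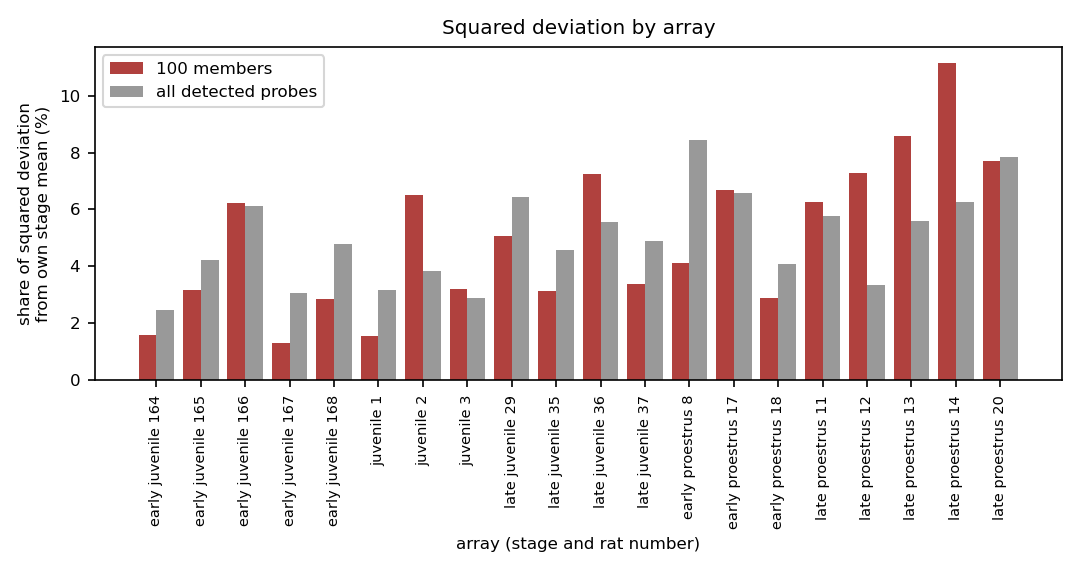
Share (percent) of the summed squared deviation from stage means held by each of the 20 arrays, for the 100 members and for all detected probes. Late proestrus rat 14 holds 11.1% for the members against 6.27% for all detected probes.

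Array brightness was tested against every detected probe. The rule did not rank probes by it, but it left out the 4 dimmest arrays, so the test covers a narrowed range of brightness. In limma, with stage and log2 mean raw intensity in the model, 0 of the 10891 probes (0%) passed an adjusted p of 0.05, and 0 of the 100 members. At an unadjusted p under 0.05 there were 1103 probes (10.1%) and 7 members. On median-scaled values in place of the deposited normalization, 15 members and 16.4% of all detected probes passed. With the 2 arrays put aside taken back in, 3 members and 16.5% of all probes passed. By stage, 5 members passed limma's F test with Benjamini-Hochberg adjustment, against 43.2% of all detected probes. The rule capped the stage differences, so nothing is read from that count.

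Some members had a second probe with the same target number, put through the same rule on the same 20 arrays. Of 8 such pairs, 1 joined the members ILMN_2038795 and ILMN_2038796, 2 had a partner detected on no array, and 5 were tested by permuting arrays within stages (100000 draws, two-sided, adjusted over the 5). The leading probe of group B, ILMN_1367581, followed its partner ILMN_1366337, with r = 0.836 (permutation p = 0.0004, adjusted 0.002) and rho = 0.818 (adjusted permutation p = 0.0042) over 20 arrays. Without the 2 arrays farthest from the median, r was 0.761. The partner varied less, with a within-stage SD of 0.106 against 0.258. ILMN_1530525, of group A, and its partner ILMN_1370640 gave r = −0.43 and rho = −0.519, with adjusted permutation p of 0.196 and 0.107. For the other 3 pairs r was 0.228 to 0.287, with adjusted permutation p of 0.329 to 0.385. Thus in 1 of 5 pairs the probes moved together across rats, and in the other 4 no relation was detected with 20 arrays. The pattern of group B was wide: 112 detected probes outside it correlated above 0.8 with its mean and 86 below −0.8. High correlations with that pattern were therefore not limited to probes that share a target number.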

How the data were processed

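The deposited files held, for 24 rats, the authors' non-normalized bead intensity per probe with a detection p-value, per the file headers, and a table of processed intensity. The processed intensity has the same maximum and near-equal quartiles on every array and keeps each array's rank order, so it was taken as quantile normalized by the authors on a linear scale. The labels record no scanner software, slide or scan date, so no batch could be examined. The labels name the rats by number and say nothing of litters. The p-values measure the spread between these rats.

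Processed intensity was taken to log2 with no pseudocount and no further background correction, so differences of probes near background are compressed. Tests used limma 3.58.1 in R 4.3.3 with Benjamini-Hochberg adjustment over 10891 detected probes, and permutation tests used Python 3.11.15 with numpy 2.4.6 and scipy 1.17.1. The fits were tested on simulated data. Alternatives were limma's neqc on the non-normalized intensity (offset 16), median scaling, other array sets, other filters and each array left out.

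The members, lists and tests were chosen with earlier results of these data known. Probes were named by rule as at most 4 of the largest SD, 4 leading a group, those nearest the limits and those with a second probe. The lists of marker genes drawn up for cell types and pathways were not used, since 0 probes could be given a gene symbol, and no sequence is printed for the same reason.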

Additional observations from a re-analysis of the deposited data

Results flagged for a closer look

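Dixon's test at the 95% level was used to look for a rat far above or below the others of its stage on each named probe, where the stage had 4 or 5 arrays. Of 87 sets of values from 29 probes, 20 had a rat far from the rest. Chance gives about 1 in 20, but the probes were chosen for their spread, so that share is no yardstick. All levels are log2 normalized intensity, and the causes were not tested. Juvenile rat 5 and late juvenile rat 28, put aside for dimness, are not among the others.

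Late juvenile rat 36 stood apart from the other 3 used rats of its stage on 5 probes. It was low on ILMN_2038795 at 8.83 (others 11.30 to 11.44), ILMN_1365113 at 9.41 (11.78 to 11.94), ILMN_2038796 at 11.01 (12.35 to 12.46) and ILMN_1358998 at 8.49 (9.51 to 9.68). It was high on ILMN_1358078 at 10.12 (8.76 to 8.82). Rat 28 was on the same side as rat 36 on ILMN_2038795 at 8.73, ILMN_1365113 at 9.36 and ILMN_1358078 at 10.66. It lay between the others and rat 36 on ILMN_2038796 at 11.55, and above them all on ILMN_1358998 at 10.40. Early juvenile rat 166 stood high on ILMN_2038795 at 11.26 (8.10 to 8.95), ILMN_1353766 at 8.99 (7.60 to 7.90) and ILMN_1376587 at 10.80 (10.26 to 10.34).

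Late proestrus rat 14 was high on ILMN_1376663 at 11.76 (9.72 to 10.00), ILMN_1360314 at 10.08 (7.88 to 8.41) and ILMN_1361976 at 8.03 (7.78 to 7.85). The last of these probes was near background, with a detection p of 0.04 in rat 20. Late proestrus rat 13 was low on ILMN_1349205 at 9.31 (12.17 to 13.00). Late proestrus rat 20 was high on ILMN_1358998 at 9.19 (8.31 to 8.54), and rat 11 on ILMN_1376587 at 10.73 (10.23 to 10.31).

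Early juvenile rat 168 was low on ILMN_1349205 at 12.09 (12.76 to 12.81) and high on ILMN_1360314 at 9.03 (8.10 to 8.26). Rat 165 was low on ILMN_1351983 at 11.35 (12.30 to 12.60), and rat 167 on ILMN_1372946 at 14.98 (15.35 to 15.42). Late juvenile rat 29 was high on ILMN_1349591 at 13.81 (12.66 to 12.83), where rat 28 was at 13.78. Rat 37 was low on ILMN_1366540 at 11.58 (12.71 to 12.92), where rat 28 was at 13.02.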

How the results depend on the processing

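Which probes the rule chose depended on the processing. Of the 100 members, 45 were chosen again from neqc values, 64 after median scaling, 46 with 22 arrays, 4 with all 24, 18 with a span limit of 1 SD, 44 with none and 31 with the median absolute deviation. Without each array in turn 82 to 95 were chosen again, and 25 were chosen every time. Of the 10 of largest SD, all were chosen again under neqc, median scaling, 22 arrays and no span limit, 2 with 24 arrays, 2 with a span limit of 1 SD and 1 with the median absolute deviation. The median SD was 0.404 with neqc, 0.558 with 24 arrays and 0.249 to 0.269 without each array. The members called by stage numbered 2 with neqc (40.1% of all probes tested), 31 after median scaling (45.8%) and 0 with 24 arrays (0.362%). Without each array they numbered 2 to 15, against 37.3% to 46.7% of all probes tested. The members called by brightness numbered 15 after median scaling (16.4% of all probes tested), 3 with 22 arrays (16.5%) and 75 with 24 (86.1%). Without each array they numbered 0, against 0% to 0.00927% of all probes tested. The cause was not tested. The 5 groups stayed within 4 to 7 and the largest within 28 to 34. Alternatives chosen after seeing the data gave 7 members with 2 ranges under neqc and 5 after median scaling (6 as reported), 18 with 1 array apart under neqc (11 as reported), and again 27 of 30 for group A on late juvenile rat 28. No paired analysis was possible because no rat number occurs in more than 1 stage.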
